A study of Rattus norvegicus with 325 samples.

Results

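The change with age of the tibialis anterior, a mostly fast muscle of the front of the lower leg, was set against that of the diaphragm, the main muscle of breathing. For every gene the change from 6 to 27 months in the diaphragm was taken from the change over the same ages in the tibialis anterior, so that a positive value is a larger rise or a smaller fall in the tibialis anterior. Libraries were chosen by their labels alone, which gave 48, or 14.8% of the libraries of the series. There were 12 libraries each of the tibialis anterior at 6 months, the tibialis anterior at 27 months, the diaphragm at 6 months and the diaphragm at 27 months. The rats were untreated males of the outbred Sprague Dawley stock, from 1 supplier that also housed them as they aged. Each library was made from total RNA of bulk muscle tissue after removal of ribosomal RNA, and reads were counted per gene. The tissues of 1 age were collected on 1 day, so the day of collection cannot be told apart from age, and no label ties a library to an animal.

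Muscle fibres depend on their motor nerve. A fibre that has lost its nerve switches back on a set of genes that is otherwise confined to development or to the junction, among them the subunits of the muscle acetylcholine receptor, and it loses enzymes and contractile proteins of the mature fibre. The tibialis anterior works in bouts during stepping, whereas the diaphragm contracts with every breath throughout life and holds a mixture of slow and fast fibres.

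Of 12784 genes tested, 2590 (20.3%) changed differently in the muscles, at a Benjamini-Hochberg adjusted p under 0.05 in limma and a difference over 1.5-fold. The difference was higher in the tibialis anterior for 1695 genes (13.3%) and lower for 895 (7.0%), and 249 of the former and 41 of the latter were past 4-fold. The tibialis anterior moved in most of these. It rose with no call in the diaphragm for 1247 genes and fell with no call in the diaphragm for 643. The reverse, a call in the diaphragm and none in the tibialis anterior, was found for 38 genes that rose and 81 that fell. A further 147 genes rose in both muscles and 23 fell in both, more so in the tibialis anterior, and 2 rose more in the diaphragm. The muscles moved in opposite directions for 18 genes that rose and 10 that fell in the tibialis anterior, and 202 higher and 179 lower differences were called although neither muscle passed on its own. Within the muscles, 3448 genes (27.0%) were called in the tibialis anterior and 951 (7.44%) in the diaphragm, 500 of them higher (3.91%) and 451 lower (3.53%). Libraries of 27 and 6 months did not overlap for 2383 genes (18.6%) in the tibialis anterior and for 344 (2.69%) in the diaphragm.

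**Figure D1:**
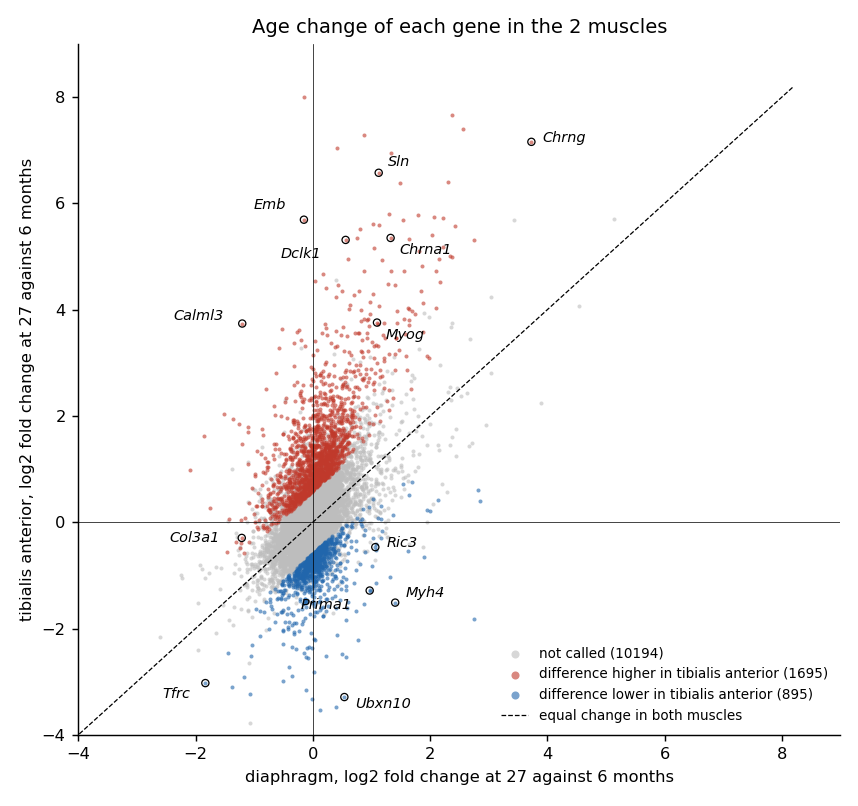
The log2 fold change at 27 against 6 months of each of the 12784 genes tested is plotted for the diaphragm (horizontal axis) and the tibialis anterior (vertical axis), with the dashed line at equal change. The 1695 genes in red lie above the line and the 895 in blue below it, and the cloud of red points runs upwards near a diaphragm change of 0, with Emb at 5.69 in the tibialis anterior and -0.15 in the diaphragm.

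Values below are log2 differences of log2 fold changes unless a level is named, and levels are CPM, read counts over the library total as scaled by the trimmed mean of M values (TMM). This scaling sets most genes of a library level with those of the others. Scaling to total counts moved the median difference of all genes from 0.02 to 0.35, a shift of 0.33, and turned the split from 65.4% into 91.9% higher (3387 higher and 299 lower). The 10 most abundant genes took 28.1% of counts in the young and 21.6% in the old tibialis anterior (median library), against 17.6% and 18.1% in the diaphragm. For the lists below with more lower than higher genes, the count or median with total counts is therefore given too. Totals ran from 19.4 to 66.1 M counts per library. The muscles carried the marks of their labels, since Hoxc10, a homeobox gene of the hind limb, held 40.4 to 81.9 CPM in every tibialis anterior library and 0 to 0.377 CPM in the diaphragm. Myh7, the slow myosin, held 14168 to 25983 CPM in the diaphragm and 187 to 4609 CPM in the tibialis anterior. The hind limb factors Pitx1 and Tbx4 reached at most 0.656 and 1.08 CPM in any library, so they do not mark the limb muscle here. Since bulk tissue was measured, fewer cells of a type and less RNA in each cannot be told apart.

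The acetylcholine receptor of the muscle membrane, the channel that opens when the nerve releases its transmitter, had the highest median difference of the 45 lists examined. Of its 5 subunits, 4 rose more in the tibialis anterior, none less, and the median difference was 2.96 against 0.02 for all genes tested. The alpha subunit Chrna1 ran from 9.96 to 17.3 CPM (median 13.7) at 6 months and from 135 to 1018 CPM (median 614) at 27 months in the tibialis anterior, and from 14.6 to 32.8 CPM (median 20.3) at 6 months and from 22.0 to 189 CPM (median 48.6) at 27 months in the diaphragm. Every old tibialis anterior library lay above every young one, whereas the old diaphragm overlapped the young. The difference was 4.02 ± 0.41 (SE, adjusted p = 4.1e-18), made of a change of 5.35 in the tibialis anterior and 1.33 in the diaphragm. Chrnd, the delta subunit, rose in both muscles without overlap between the ages, by 4.83 and 1.87, a difference of 2.96 ± 0.29 (SE, adjusted p = 3.3e-19). Its level was 5.76 to 7.62 CPM (median 6.66) at 6 months and 69.5 to 323 CPM (median 213) at 27 months in the tibialis anterior and 15.2 to 22.8 CPM (median 18.2) at 6 months and 39.0 to 127 CPM (median 63.2) at 27 months in the diaphragm.

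The gamma subunit Chrng belongs to the fetal receptor and is replaced after birth by the epsilon subunit Chrne. Chrng was close to absent in young tibialis anterior, at 0 to 0.388 CPM (median 0.251) at 6 months and 6.77 to 69.7 CPM (median 34.2) at 27 months, and held 0.189 to 1.30 CPM (median 0.440) at 6 months and 2.08 to 20.3 CPM (median 6.69) at 27 months in the diaphragm. It rose in both muscles without overlap, and the difference of 3.43 ± 1.11 (SE, adjusted p = 0.006) carries a large error and is set by the few counts of the young libraries. The adult subunit Chrne went from 7.86 to 10.8 CPM (median 8.95) at 6 months and from 12.6 to 39.1 CPM (median 22.3) at 27 months in the tibialis anterior, a rise of 1.31, and from 6.03 to 10.9 CPM (median 7.76) at 6 months and from 8.68 to 11.6 CPM (median 9.87) at 27 months in the diaphragm, where the change of 0.32 was not called. The beta subunit Chrnb1 rose by 1.06 in the tibialis anterior, and its difference of 0.48 ± 0.10 (SE, adjusted p = 3.1e-05) stayed under the 1.5-fold threshold. With total counts it passed, at 0.81. Summed over the 5 subunits, the level was alike in the young muscles, at 77.9 to 97.2 CPM in the tibialis anterior and 77.3 to 103 CPM in the diaphragm, and reached 303 to 1586 CPM in the old tibialis anterior against 138 to 418 CPM in the old diaphragm.

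The promoters of the 5 subunits and of Myog, the myogenic factor described next, are shown because these genes rose together in the tibialis anterior. Each sequence is the 150 bases before the annotated start, read 5′ to 3′ on the gene's strand, from RefSeq on the build GRCr8, and capitals mark every match to the E-box CANNTG, the core that myogenic factors of the basic helix-loop-helix family bind. The motif reads the same on both strands.
Chrna1, chr3:78877354-78877503, minus strand: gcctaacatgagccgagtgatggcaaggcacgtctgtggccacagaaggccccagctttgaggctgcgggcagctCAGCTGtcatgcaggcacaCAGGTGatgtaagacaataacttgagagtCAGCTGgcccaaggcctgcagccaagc
Chrnb1, chr10:55015108-55015257, minus strand: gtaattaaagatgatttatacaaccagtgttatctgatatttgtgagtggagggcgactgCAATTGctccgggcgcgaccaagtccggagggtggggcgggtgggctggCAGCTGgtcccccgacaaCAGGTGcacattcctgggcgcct
Chrnd, chr9:95310166-95310315, plus strand: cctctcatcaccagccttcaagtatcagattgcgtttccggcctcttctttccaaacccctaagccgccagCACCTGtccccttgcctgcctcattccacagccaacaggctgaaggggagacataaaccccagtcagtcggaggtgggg
Chrne, chr10:55834155-55834304, minus strand: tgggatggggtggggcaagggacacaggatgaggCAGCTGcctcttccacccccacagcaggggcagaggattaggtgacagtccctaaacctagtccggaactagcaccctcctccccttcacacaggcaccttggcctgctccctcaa
Chrng, chr9:95325834-95325983, plus strand: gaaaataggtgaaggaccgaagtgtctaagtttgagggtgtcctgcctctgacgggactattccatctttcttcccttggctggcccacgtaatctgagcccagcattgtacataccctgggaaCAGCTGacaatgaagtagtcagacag
Myog, chr13:48297326-48297475, plus strand: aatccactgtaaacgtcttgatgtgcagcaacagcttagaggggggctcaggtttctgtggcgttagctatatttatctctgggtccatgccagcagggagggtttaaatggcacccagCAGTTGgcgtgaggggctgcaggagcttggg

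All 6 windows held at least 1 E-box, and Chrna1 and Chrnb1 held 3 each. The form CAGCTG was found at 27 and 75 bases before the start of Chrna1, at 41 in Chrnb1, at 116 in Chrne and at 26 in Chrng, and it was not among the letters of the windows of Chrnd and Myog. For comparison, windows of this length held CANNTG in 46.6% and CAGCTG in 7.6% of the 33469 promoters of the table, and in 38.7% and 8.1% of the 10236 tested genes that could be matched to it by current or older symbol. A match is a run of letters and no measure of binding.

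Genes known to answer to loss of the nerve moved in the same way. On a list of 15 tested, 12 were higher and 1 lower, with a median difference of 2.66, a median change of 3.76 in the tibialis anterior and 1.09 in the diaphragm. The diaphragm was not flat here, since 11 of the 15 rose in it as well. The lists were written with earlier results of these data known, and they share members. Myog, Fbxo30, Ankrd1 and Mybph are among those of this list that count again below. Myog, which drives the receptor genes and other muscle genes, ran from 8.39 to 15.3 CPM (median 9.86) at 6 months and from 87.2 to 206 CPM (median 141) at 27 months in the tibialis anterior and from 9.66 to 30.7 CPM (median 14.2) at 6 months and from 13.8 to 65.2 CPM (median 24.2) at 27 months in the diaphragm. Its difference was 2.66 ± 0.28 (SE, adjusted p = 2.1e-17), and the old tibialis anterior lay above all other libraries. Runx1, a transcription factor induced on denervation, rose by 5.10 and 1.81, with a difference of 3.29 ± 0.40 (SE, adjusted p = 1.6e-13). Hdac4, a histone deacetylase that carries the signal of lost activity to the nucleus, rose without overlap of the ages in both muscles and differed by 1.60 ± 0.22 (SE, adjusted p = 1.1e-10). Gadd45a, a stress protein that remodels the nuclei of denervated fibres, had a median of 9.25 to 204 CPM in the tibialis anterior and 9.35 to 19.3 CPM in the diaphragm, with a difference of 3.20 ± 0.36.

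Cdkn1a, which encodes the cell cycle inhibitor p21, stood at 6.64 to 30.7 CPM (median 19.0) at 6 months and 235 to 1199 CPM (median 726) at 27 months in the tibialis anterior and 32.3 to 57.1 CPM (median 44.5) at 6 months and 62.9 to 307 CPM (median 118) at 27 months in the diaphragm. Both muscles rose without overlap, and the difference of 3.69 ± 0.38 (SE, adjusted p = 2.1e-17) came from a change of 5.33 against 1.64. Sln, the sarcolipin that uncouples the calcium pump, was at 0.0373 to 0.965 CPM (median 0.280) at 6 months and 8.06 to 53.1 CPM (median 31.8) at 27 months in the tibialis anterior and 11.4 to 25.9 CPM (median 15) at 6 months and 25.1 to 47.9 CPM (median 33.0) at 27 months in the diaphragm. In young animals the tibialis anterior lay below every diaphragm library, and in old ones the muscles overlapped. Its difference was 5.45 ± 0.71 (SE, adjusted p = 7.8e-12). Ankrd1, a stress protein of the sarcomere, differed by 3.76 ± 0.54, or by 3.18 without the diaphragm library of replicate 0 at 6 months, which held the 198 CPM that top its group. Ky, a structural protein of muscle, was the 1 member called lower, at -1.09 ± 0.19, with its rise in the diaphragm.

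**Figure D2:**
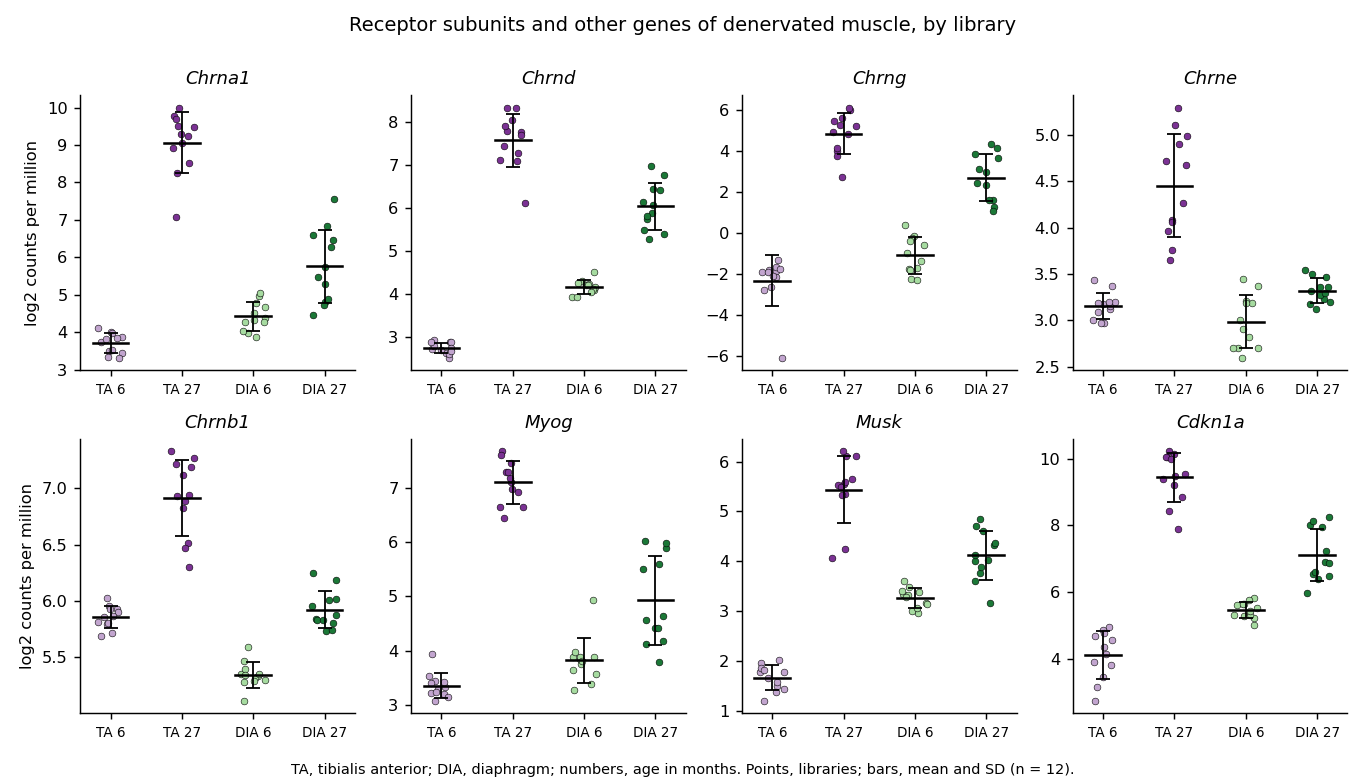
Levels of 8 genes in log2 CPM are plotted for the 48 libraries, with each group's mean and SD over 12 libraries. In Myog the old tibialis anterior stands above the other groups and in Chrna1 it overlaps the old diaphragm, with an old diaphragm that overlaps the young one in both, and in Chrnd, Chrng, Chrnb1 and Cdkn1a the ages part in both muscles.

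Genes for proteins that build the neuromuscular junction did not move as a block. Of 19 tested, 6 were higher and 2 lower, and the median difference was 0.03. Musk, the receptor kinase that gathers acetylcholine receptors under the nerve, went from 2.28 to 4.01 CPM (median 3.27) at 6 months and from 16.8 to 74.2 CPM (median 46.8) at 27 months in the tibialis anterior and from 7.78 to 12.1 CPM (median 9.84) at 6 months and from 9.00 to 29.0 CPM (median 16.9) at 27 months in the diaphragm, a difference of 2.94 ± 0.29 (SE, adjusted p = 2.3e-18). Ncam1, an adhesion molecule that spreads over denervated fibres, rose by 3.56 against 0.77. Erbb2, a receptor for the nerve factor neuregulin, rose by 3.52 in the tibialis anterior, its 0.48 in the diaphragm was not called, and the difference was 3.04 ± 0.43 (SE, adjusted p = 1.4e-10). Lama5, a laminin chain of the basement membrane, differed by 2.02 ± 0.17. The co-receptors Lrp4 and Erbb3 were also higher, at 0.81 and 0.84. Ache, the esterase that clears the transmitter, was lower at -0.60, and Etv4, a transcription factor of the ETS family, at -1.15. With total counts 6 of the 19 genes were higher and 1 was lower.

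Among 10 myogenic factors 4 were higher. Myf5, an early factor of muscle precursors, went from 1.67 to 3.74 CPM (median 2.72) at 6 months and from 4.51 to 30.2 CPM (median 18.2) at 27 months in the tibialis anterior and from 6.07 to 9.01 CPM (median 7.77) at 6 months and from 6.41 to 11 CPM (median 8.04) at 27 months in the diaphragm, a difference of 2.28 ± 0.26 (SE, adjusted p = 2.8e-15). Myod1 differed by 0.68 ± 0.26 and Myf6 by 0.60 ± 0.10. Myf6 sat at the threshold, and its call was lost in 10 of the 48 fits that left out 1 library. Without the diaphragm library of replicate 0 at 6 months Myod1 fell below the threshold, at 0.56. Of 16 satellite cell and Notch genes 3 were higher (Vcam1 0.89, Dll1 0.83, Notch2 0.67) and none lower. That is 18.75%, against 20.3% of all genes tested called in either direction and 13.3% called higher.

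Ubiquitin ligases mark muscle protein for breakdown, and Foxo factors switch on several of their genes. Of 12 of these 1 was higher and 2 were lower, and with total counts 3 were higher and none lower. The share called was 25%, against 20.3% of all genes tested. Trim63, known as MuRF1, differed by 0.06 ± 0.15 (SE, adjusted p = 0.77), and Fbxo32, known as atrogin-1, by -0.16 ± 0.14 (SE, adjusted p = 0.36), so neither of these best known ligases passed the test. Fbxo30, a ligase of the bone morphogenetic protein pathway in denervated muscle, was called higher, at 1.64 ± 0.20. Foxo4 and Asb2 were lower, at -0.75 ± 0.09 and -0.70 ± 0.15, and neither passed with total counts. None of 37 proteasome subunits was called, with a median difference of -0.08 that turned to 0.25 with total counts. Limma gave 12 of them an adjusted p under 0.05 with a negative sign, all below 1.5-fold.

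Many genes on a list of developmental sarcomere genes rose more in the tibialis anterior. The list holds isoforms of the embryo or the heart and other proteins such as Ankrd1, Csrp3, Mybph, Nes and Vim. Of 12 tested, 7 were higher and none lower, with a median of 0.91. Myh3, the embryonic myosin heavy chain, stood at 29.4 to 75.5 CPM (median 44.4) at 6 months and 123 to 2148 CPM (median 651) at 27 months in the tibialis anterior and 14.7 to 28.6 CPM (median 24.2) at 6 months and 29.8 to 362 CPM (median 60.3) at 27 months in the diaphragm. It rose without overlap in both muscles and differed by 2.17 ± 0.43 (SE, adjusted p = 4.1e-06). Tnnt2, the cardiac troponin T, and Csrp3, a mechanosensor of the Z-disc, differed by 2.94 ± 0.56 and 2.28 ± 0.44. Myh8, the neonatal myosin, differed by less, 0.72 ± 0.25 (SE, adjusted p = 0.012). Myl4 rose alike in both muscles, by 2.30 and 2.36, with a difference of -0.06 ± 0.70, and Myl6b was not called.

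RNA of many adult fibre genes, though not of all, went down in the tibialis anterior. On the list of fast fibre genes 8 of 15 were lower and none higher, with a median of -0.84, and the same number fell in the tibialis anterior while none fell in the diaphragm. Mylk2, the kinase of the fast myosin light chain, ran from 1283 to 1578 CPM (median 1381) at 6 months and from 113 to 847 CPM (median 315) at 27 months in the tibialis anterior and from 257 to 429.9 CPM (median 361) at 6 months and from 185 to 467 CPM (median 365) at 27 months in the diaphragm. Its difference was -2.22 ± 0.20 (SE, adjusted p = 3.8e-21), and old tibialis anterior, which lay below its young libraries, overlapped the diaphragm. Actn3, the alpha-actinin of fast fibres, and Mybpc2, the fast myosin-binding protein, differed by -1.51 ± 0.43 and -1.41 ± 0.36. The calcium pump Atp2a1 (-1.01), the calcium store protein Casq1 (-0.84) and troponin C of fast fibres, Tnnc2 (-0.85), were lower too.

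Slow fibre genes had lower differences as well, 7 of 12, with 1 higher and a median of -0.65. Of the 7, Myh7, Myl3 and Tpm3 were called lower in the tibialis anterior itself. Myl2, Tnnc1, Atp2a2 and Myh7b were not, and Myh7b rose in the diaphragm (0.61). Myh7 was 1448 to 3386 CPM (median 2062) at 6 months and 187 to 4609 CPM (median 857) at 27 months in the tibialis anterior and 14168 to 20568 CPM (median 16944) at 6 months and 17363 to 25983 CPM (median 21268) at 27 months in the diaphragm. The difference was -1.41 ± 0.28 (SE, adjusted p = 4.3e-06), with a fall (-1.07) in the tibialis anterior and 0.34, not called, in the diaphragm. The ages overlapped in both muscles. Tpm3 and Myl3, tropomyosin and light chain of slow fibres, differed by -1.26 ± 0.24 and -0.88 ± 0.17. Casq2 was the slow fibre gene called higher, at 1.15 ± 0.21. With total counts 6 fast and 2 slow genes were called lower, and Myl3 was not.

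The adult fast myosins did not move together. Myh4, the heavy chain of the fastest fibres, ran from 76274 to 98249.6 CPM (median 87432) at 6 months and from 11953 to 69509 CPM (median 28896) at 27 months in the tibialis anterior and from 257 to 7709.9 CPM (median 1181) at 6 months and from 1059 to 9632 CPM (median 5175) at 27 months in the diaphragm. It fell without overlap in the former and rose in the latter, a difference of -2.92 ± 0.55 (SE, adjusted p = 1.5e-06), although the ages overlapped in the diaphragm, where young libraries spread over a wide range. Myh1 and Myh2, the heavy chains of the other fast types, differed by 0.18 ± 0.66 and -0.02 ± 0.81, with no call in either muscle. Their errors come from a spread that is shared over all muscles and ages fitted. In a limma fit of the 48 libraries alone Myh1 still missed the threshold, at 0.19 (adjusted p = 0.25). These genes are close copies of each other, and how reads common to them were counted is not given in the sources used here.

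Genes of calcium handling were lower too. Of 14 tested, 5 were lower and none higher, with a median of -0.51, which with total counts became 1 lower, 1 higher and -0.18. The junctophilins Jph1 (-0.80 ± 0.10) and Jph2 (-1.02 ± 0.15), which hold the calcium store against the surface membrane, the calcium channel subunit Cacna1s (-0.77 ± 0.10) and the store's cation channel Tmem38a (-0.84 ± 0.10) were among them, and of these Jph2 alone passed with total counts. Channels of the surface membrane parted in both directions. Of 12 sodium channel genes, 5 were higher, among them Scn1a (1.78 ± 0.21), and 3 were lower, among them the adult muscle channel Scn4a (-0.60) and the partner subunit Scn4b (-1.12). Scn2b was among the higher ones but reached at most 0.449 CPM in any library, and its call was lost in 24 of 48 fits that left out 1 library. With total counts 6 sodium channel genes were higher and 2 lower. Among 15 potassium channels, Kcnq5 (2.09 ± 0.19), Kcnn3 (1.71 ± 0.17) and Kcnma1 (1.13) were higher, and Kcnj11 (-1.2 ± 0.13), the pore of the channel that senses ATP, Kcna7 (-1.19 ± 0.18), Kcnc1 (-1.16) and Kcnj12 (-0.71) were lower. With total counts 4 potassium channels were higher and 3 lower.

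Glycolysis was the list with the lowest median, -0.85, and 13 of its 19 genes were lower. Pfkm, the phosphofructokinase of muscle that sets the pace of glycolysis, ran from 2986 to 3302 CPM (median 3165) at 6 months and from 616 to 2568 CPM (median 1323) at 27 months in the tibialis anterior and from 1043 to 1357 CPM (median 1184) at 6 months and from 963 to 1556 CPM (median 1385) at 27 months in the diaphragm. The old tibialis anterior lay below all young libraries of that muscle and overlapped the diaphragm, and the difference was -1.39 ± 0.15 (SE, adjusted p = 7.4e-16). Aldoa, an aldolase, differed by -1.23 ± 0.17, and the regulators Pfkfb1 and Pfkfb3, which make the activator of phosphofructokinase, by -1.68 ± 0.21 and -2.04 ± 0.35. Pkm, Gapdh, Ldha, Eno3, Pgam2, Tpi1, Pgk1 and Gpi were lower, with values from -1.17 to -0.71, and so was the insulin-responsive glucose transporter Slc2a4, at -0.69. Slc2a1, the general glucose transporter, was the 1 member called higher, at 1.19, and Hk1 and Pgam1 had positive differences under 1.5-fold. With total counts 9 of the 19 were lower and 3 higher.

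Of 17 glycogen genes 8 were lower and 1 higher, with a median of -0.49. With total counts 4 were lower and 2 higher, with a median of -0.17. Pygm, the phosphorylase that breaks glycogen down, was 17270.4 to 20245 CPM (median 18864) at 6 months and 3186 to 16487 CPM (median 7769.6) at 27 months in the tibialis anterior and 6809 to 9393 CPM (median 7694) at 6 months and 5677 to 10069 CPM (median 8614) at 27 months in the diaphragm. The difference was -1.33 ± 0.17 (SE, adjusted p = 2.8e-12). The kinase subunits that switch it on were lower too, Phkg1 by -1.55 ± 0.19 and Phka1 by -0.97 ± 0.14. Ppp1r3c, which brings a phosphatase to glycogen, fell in both muscles (-2.0 and -0.75). Pygl, the liver form of the phosphorylase, was the gene called higher, at 0.69.

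Mitochondrial genes shifted by less per gene but with few exceptions in sign. Of 34 complex I genes, 33 had a negative difference, 8 were lower past 1.5-fold, and the median was -0.51. Of 40 genes of complexes II to V, 38 were negative and 11 lower, with a median of -0.49. The shares called were 23.5% and 27.5%, against 20.3% of all genes tested called in either direction and 7.0% called lower. By its own change the tibialis anterior was called lower for 3 and 8 genes of these lists. Most of the lower differences in both lists came with no call in that muscle. Ndufs3, a core subunit of complex I, went from 136 to 168 CPM (median 154) at 6 months and from 62.6 to 144 CPM (median 105) at 27 months in the tibialis anterior and from 114 to 148 CPM (median 129) at 6 months and from 109.9 to 151 CPM (median 138) at 27 months in the diaphragm, a difference of -0.72 ± 0.11 (SE, adjusted p = 5.3e-09). Cox5a of complex IV differed by -0.68 ± 0.11 and Atp5b, the catalytic subunit of ATP synthase, by -0.67 ± 0.10. Cox6a2, the muscle form of a complex IV subunit, differed by -0.67 ± 0.09 with the larger part in the diaphragm, where old libraries lay above all young ones at 976 to 1359.5 CPM (median 1110.1) at 6 months and 1394 to 1679 CPM (median 1538) at 27 months, although neither muscle was called. With total counts no gene of either list was called lower and 1 of complexes II to V was higher, and the medians were -0.18 and -0.16 against 0.35 for all genes.

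The citric acid cycle and the entry of pyruvate had 5 of 23 lower, among them the pyruvate carrier Mpc1 (-0.84 ± 0.12) and the pyruvate dehydrogenase kinase Pdk2 (-1.12 ± 0.13), and 1 higher, Pdk4 (0.88 ± 0.35). The share called was 26.1%, against 20.3% of all genes tested. With total counts 1 of the 23 was lower and 1 higher, Mpc1 was not called, and the median moved from -0.46 to -0.13. The call of Pdk4 was lost in 3 of 48 fits that left out 1 library. Fatty acid oxidation did not follow. Of its 25 genes 1 was called, and the median of -0.14 turned to 0.19 with total counts. That gene was Ucp3, an uncoupling protein, which fell in the diaphragm from a median of 53.5 to 32.9 CPM and stood at 176 to 189.8 CPM in the tibialis anterior, a difference of 1.23 ± 0.44 (SE, adjusted p = 0.014). Of 69 mitochondrial ribosomal proteins 6 were lower and 1 higher, with a median of -0.29 that became 0.04 with total counts, where 2 were lower. Their share called was 10.1%, against 20.3% of all genes tested.

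Of 17 regulators of mitochondrial genes, 3 were lower, and 1 with total counts. The share called was 17.6%, against 20.3% of all genes tested called in either direction and 7.0% called lower. Perm1, a muscle regulator of oxidative metabolism, had the largest difference, -1.04 ± 0.21 (SE, adjusted p = 6.6e-06). Nfyb, a subunit of a CCAAT-binding factor, went from 23.1 to 27.6 CPM (median 24.8) at 6 months and from 12.9 to 22.4 CPM (median 15) at 27 months in the tibialis anterior and from 10.7 to 13.6 CPM (median 12.0) at 6 months and from 10.7 to 14.5 CPM (median 12.2) at 27 months in the diaphragm, and differed by -0.71 ± 0.10 (SE, adjusted p = 2.5e-11). Ppara, a receptor for fatty acids, differed by -0.70 ± 0.11 with no call in either muscle, and neither Nfyb nor Ppara passed with total counts. Esrra, the estrogen-related receptor alpha, and its partner Ppargc1a fell in the tibialis anterior (-0.65 and -0.59), but their differences of -0.55 ± 0.14 and -0.45 ± 0.13 stayed under 1.5-fold. Leaving out 1 library brought Esrra past the threshold in 3 of 48 fits.

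**Figure D3:**
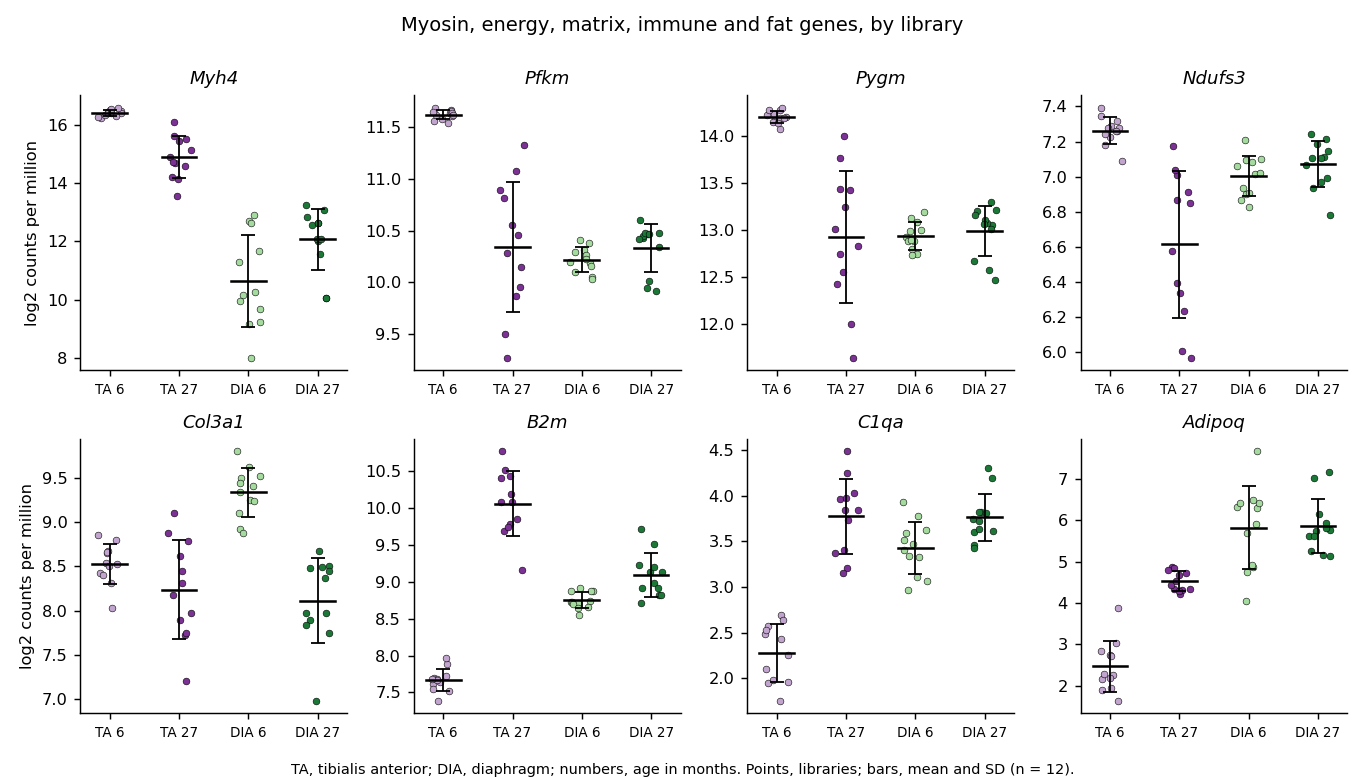
Levels of 8 genes in log2 CPM are plotted for the 48 libraries, with each group's mean and SD over 12 libraries. Old tibialis anterior reaches the level of the diaphragm in Pfkm and Pygm, Myh4 falls in 1 muscle and rises in the other, Col3a1 falls in the diaphragm, and B2m, C1qa and Adipoq rise in the tibialis anterior.

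Immune genes rose more in the tibialis anterior. Of 18 genes that process or present antigen, 11 were higher and none lower, with a median of 1.13. B2m, the light chain of class I molecules, was 167 to 251 CPM (median 204) at 6 months and 573 to 1752 CPM (median 1085) at 27 months in the tibialis anterior and 376 to 485 CPM (median 425) at 6 months and 419 to 839 CPM (median 534) at 27 months in the diaphragm. The young tibialis anterior lay below every diaphragm library, the old one overlapped the old diaphragm, and the difference was 2.05 ± 0.15 (SE, adjusted p = 3.0e-31). Ciita, the master switch of class II genes, differed by 1.39 ± 0.27, and the class II genes Cd74 and RT1-Da by 1.17 and 1.2. Psmb8, Psmb9 and Tap1, which cut and carry peptides for class I, were higher by 1.10, 0.67 and 1.14.

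Complement had 15 of 19 genes higher and 1 lower, with a median of 1.01. C1qa, a chain of the first component, ran from 3.36 to 6.44 CPM (median 5.07) at 6 months and from 8.91 to 22.4 CPM (median 14.3) at 27 months in the tibialis anterior and from 7.81 to 15.3 CPM (median 10.8) at 6 months and from 10.7 to 19.7 CPM (median 13.3) at 27 months in the diaphragm, a difference of 1.14 ± 0.22 (SE, adjusted p = 2.0e-06). C3 and C4a, central components, differed by 2.95 ± 1.0 and 2.32 ± 0.32. Their levels in old tibialis anterior, medians of 6.05 and 65.0 CPM, were still under those of the diaphragm, where C3 went from a median of 77.9 to 56.4 CPM and C4a from 597 to 528 CPM. C4a and C4b are near-identical, so the division of reads between them is uncertain. Cd55, which shields a cell's own surface from complement, was the member that was lower, at -1.29.

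Markers of macrophages had 10 of 14 higher and none lower, with a median of 0.89. Their summed level was 78.6 to 131 CPM in young and 148 to 319 CPM in old tibialis anterior, and 226 to 443 and 353 to 799 CPM in the diaphragm. Mrc1, a scavenger receptor of resident macrophages, differed by 1.09 ± 0.18 and Adgre1, which encodes F4/80, by 1.06 ± 0.22. Among 14 T cell markers 4 were higher (Cd4 0.80, Cd2 1.06, Nkg7 1.42, Cd5 2.64). Cd2, Nkg7 and Cd5 had medians of 0.781, 0.718 and 0.787 CPM in the old tibialis anterior. Called members made up 28.6% of the list, against 20.3% of all genes tested called in either direction and 13.3% called higher. Cd3e and Cd3g were not called, and Cd3d was not tested. In the old tibialis anterior Cd3d, Cd3e and Cd3g had no counts in 3, 2 and 5 libraries. The median change of this list was 1.39 in the tibialis anterior and 0.75 in the diaphragm, where 5 members rose too. Among 8 B cell markers 2 were higher (25%), with a negative median of -0.40. The part of more such cells in the immune differences was not tested. Interferon genes parted less, with 6 of 31 higher, among them Gbp5 (0.99 ± 0.17) and Usp18 (0.98 ± 0.30), and a median of 0.31. That is 19.4%, against 20.3% of all genes tested called in either direction and 13.3% called higher.

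In collagens the difference between the muscles came mostly from falls in the diaphragm, though Col1a1 fell in gastrocnemius and soleus too. Of 14 tested, 7 were higher and none lower, with a median of 0.62, and 6 of the 14 fell in the diaphragm against 1 in the tibialis anterior. Col3a1, a fibrillar collagen, was 260.3 to 462 CPM (median 370.0) at 6 months and 148 to 549.7 CPM (median 303) at 27 months in the tibialis anterior and 469 to 891 CPM (median 662) at 6 months and 126 to 407 CPM (median 290.1) at 27 months in the diaphragm, where the old libraries lay below all young ones. Its difference was 0.92 ± 0.20 (SE, adjusted p = 3.6e-05), with -0.30 in the tibialis anterior, not called, and -1.21 in the diaphragm. Col1a1, the main collagen of tendon and scar, ran from 189.8 to 468 CPM (median 365) at 6 months and from 105 to 433 CPM (median 232) at 27 months in the tibialis anterior and from 267 to 758 CPM (median 473) at 6 months and from 71.3 to 304 CPM (median 157) at 27 months in the diaphragm, a difference of 0.91 ± 0.26 (SE, adjusted p = 0.0019). Col11a1 was of the same kind, at -0.08 against -0.95. Col8a1, a short-chain collagen, rose in the tibialis anterior instead and differed by 0.84 ± 0.22.

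Other matrix genes mixed both forms. Of 33 tested, 18 were higher and none lower, with a median of 0.73, while 14 rose in the tibialis anterior and 9 fell in the diaphragm. Lox, the enzyme that cross-links collagen, rose in the former (1.2) and fell in the latter (-0.82), a difference of 2.02 ± 0.26 (SE, adjusted p = 4.6e-12). Its relative Loxl1 and the proteoglycan Bgn rose in the tibialis anterior and differed by 1.69 ± 0.23 and 1.58 ± 0.18. Timp1, an inhibitor of matrix proteases, differed by 1.69 ± 0.37. Ogn and Lum, proteoglycans of the collagen fibril, differed by 1.16 and 0.93, with -1.0 and -0.69 in the diaphragm. Fibroblast markers, 6 of 11 higher, included Pi16 (1.03 ± 0.19), which rose in the tibialis anterior, and Dpp4 (1.25 ± 0.24), which fell in the diaphragm. The summed level of the fibroblast list, which holds Col1a1, went from a median of 638 to 558 CPM in the tibialis anterior and from 874 to 531 CPM in the diaphragm, and its part in the collagen difference was not tested.

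Genes of fat cells had 8 of 12 higher and none lower, with a median of 1.60. Adipoq, the hormone adiponectin, ran from 3.08 to 14.7 CPM (median 4.79) at 6 months and from 18.6 to 29.3 CPM (median 22.3) at 27 months in the tibialis anterior and from 16.6 to 204 CPM (median 69.5) at 6 months and from 34.8 to 143 CPM (median 54.0) at 27 months in the diaphragm. The old tibialis anterior lay above its young libraries and, as in youth, below all diaphragm libraries of its age, and the difference was 1.95 ± 0.36 (SE, adjusted p = 9.2e-07). Scd1, a desaturase of fatty acids, was 6.19 to 15.2 CPM (median 8.15) at 6 months and 143 to 1072 CPM (median 503) at 27 months in the tibialis anterior and 15.2 to 923 CPM (median 86.1) at 6 months and 66.7 to 461 CPM (median 214) at 27 months in the diaphragm. It differed by 4.59 ± 0.57 (SE, adjusted p = 7.5e-13). Cidea, a protein of lipid droplets, differed by 3.85 ± 0.39, and Lep, the hormone leptin, by 1.95 ± 0.64. The summed level of the list was 257 to 363 CPM (median 334) in young and 484 to 1667 CPM (median 969) in old tibialis anterior. In the diaphragm it was 1655 to 3393 and 1480 to 2583 CPM. Much of the rise of this sum in the tibialis anterior was Scd1, whose median went from 8.15 to 503 CPM.

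Schwann cell genes had 5 of 14 higher, among them Ngfr (1.33 ± 0.27), Cnp (1.32 ± 0.21) and S100b (1.11 ± 0.28), and none lower. That is 35.7%, against 20.3% of all genes tested called in either direction and 13.3% called higher. None of 14 endothelial markers was called, with 4 at an adjusted p under 0.05 in limma and below 1.5-fold, all lower, and none of 6 red cell genes was called. On the mesothelial list, which stands for the sheet that covers the diaphragm, 3 of 8 were higher, but these were the keratins Krt18 (5.62 ± 1.01) and Krt8 (4.60 ± 0.69) and the membrane protein Gpm6a. The defining mesothelial genes stayed near 0 in the tibialis anterior, with Msln at most 0.345 CPM and Wt1 at most 0.175 CPM. Krt18 was 0 to 0.373 CPM (median 0.0870) at 6 months and 2.58 to 32.1 CPM (median 11) at 27 months in the tibialis anterior and 0 to 1.75 CPM (median 0.772) at 6 months and 0.412 to 2.82 CPM (median 0.929) at 27 months in the diaphragm, so the old tibialis anterior lay above the young libraries of both muscles and overlapped the old diaphragm. Of 13 liver transcripts 1 was called, Tf (0.90 ± 0.28), and Alb reached 357 CPM in 1 old tibialis anterior library against a median of 0.661 in its group.

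Further groups of regulators held some of the widest gaps. Igfbp2, which binds insulin-like growth factors, differed by 4.51 ± 0.65 (SE, adjusted p = 5.6e-10), at medians of 0.120 to 2.35 CPM in the tibialis anterior and 1.39 to 1.58 CPM in the diaphragm. Fst, the follistatin that blocks myostatin, ran from 1.25 to 2.77 CPM (median 2.0) at 6 months and from 5.56 to 33.8 CPM (median 21.7) at 27 months in the tibialis anterior and from 2.35 to 5.21 CPM (median 4.09) at 6 months and from 2.29 to 8.77 CPM (median 5.44) at 27 months in the diaphragm, and differed by 2.91 ± 0.34 (SE, adjusted p = 1.5e-14). Mstn, myostatin itself, went the other way, from 13.1 to 22.9 CPM (median 16.7) at 6 months and from 2.38 to 11.2 CPM (median 3.59) at 27 months in the tibialis anterior and from 2.61 to 6.32 CPM (median 3.82) at 6 months and from 1.94 to 4.50 CPM (median 3.19) at 27 months in the diaphragm, a difference of -1.78 ± 0.28 (SE, adjusted p = 6.4e-09). Its receptors Acvr1b and Acvr2b were lower too, at -1.38 and -0.99. On the list of 28 growth signalling genes 5 were higher and 3 lower, a share of 28.6% called against 20.3% of all genes tested.

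Metallothioneins, which bind zinc, and zinc transporters had 6 of 10 higher and none lower. Mt1a rose in both muscles, by 5.58 and 2.43, a difference of 3.14 ± 0.72, and Mt2A differed by 2.54 ± 0.68, although these are small genes of near copies. The zinc exporter Slc30a2 differed by 2.23 ± 0.38. Of 13 cell cycle inhibitors 6 were higher and 1 lower, with Cdkn2b at 1.71 ± 0.43. Cdkn2a, a marker of cell senescence, was at 0 to 0.0324 CPM (median 0) at 6 months and 0 to 0.524 CPM (median 0.130) at 27 months in the tibialis anterior, and its difference of 2.52 ± 0.66 was not called by edgeR's quasi-likelihood test (adjusted p = 0.81). The integrated stress response gave 7 of 25 higher and 2 lower, with Fgf21 (1.81 ± 0.65), Atf3 (1.94 ± 0.61) and Asns (1.22 ± 0.30) on 1 side and Chac1 (-2.41 ± 0.41) and Atf4 (-1.03) on the other. Atf3 differed by 1.45 without the diaphragm library of replicate 0 at 6 months, which held 361 CPM, and Fgf21 missed the threshold under edgeR's quasi-likelihood test (adjusted p = 0.054).

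Iron and polyamine genes went both ways, 5 of 16 higher and 4 lower. Tfrc, the receptor that takes up iron, fell in both muscles without overlap, from 517 to 911 CPM (median 720.4) at 6 months and from 44.2 to 179.9 CPM (median 81.7) at 27 months in the tibialis anterior and from 162 to 269 CPM (median 234) at 6 months and from 46.3 to 104 CPM (median 62.6) at 27 months in the diaphragm, and differed by -1.19 ± 0.20 (SE, adjusted p = 3.8e-08). Ftl1, which stores iron, and Sat1, which breaks polyamines down, were higher, at 1.16 ± 0.12 and 2.08 ± 0.20. Of 79 cytosolic ribosomal proteins 2 were called (2.5%, against 20.3% of all genes tested), and they form a pair. Rpl3 rose in the tibialis anterior by 1.67 and differed by 1.31 ± 0.13 (SE, adjusted p = 2.3e-19), and Rpl3l, the form that replaces it in mature muscle, differed by -0.75 ± 0.11 (SE, adjusted p = 2.0e-10), which did not pass with total counts. Among 15 clock genes 3 were lower, Nfil3 (-1.46 ± 0.29), Nr1d1 (-0.65 ± 0.19) and Tef (-0.60 ± 0.13), of which Tef rose in the diaphragm and its call was lost in 10 of 48 fits that left out 1 library. The share of clock genes called was 20%, against 20.3% of all genes tested called in either direction and 7.0% called lower. Nr1d1 and Tef did not pass with total counts, where 1 gene of the list was lower and 2 were higher. By the study's methods all animals of an age were taken in the morning or early afternoon of a single day, so that age and the day of collection cannot be told apart.

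**Figure D4:**
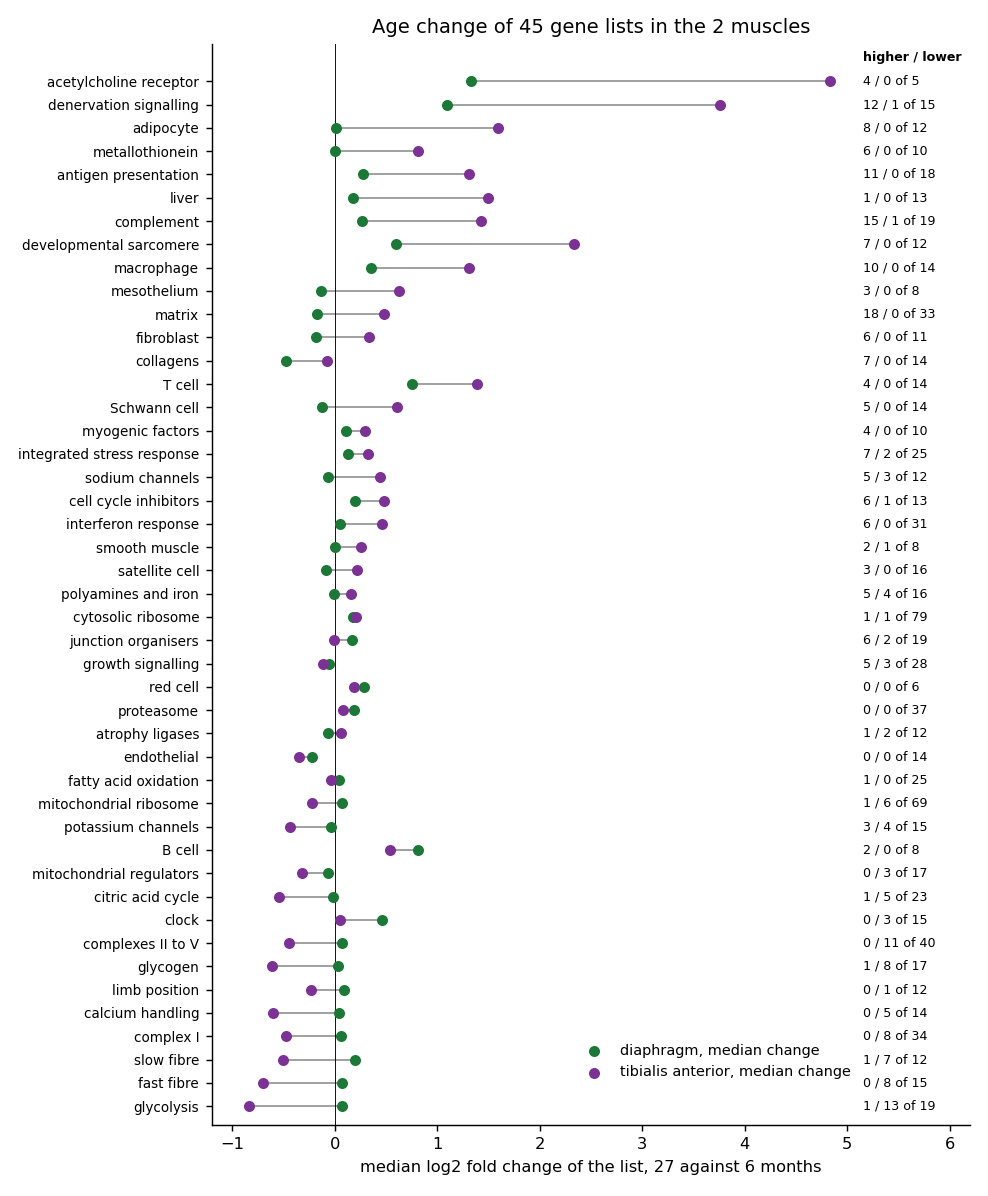
The median log2 fold change at 27 against 6 months of 45 gene lists is plotted for the tibialis anterior (purple) and the diaphragm (green), ordered by the median difference, with the number of members called higher and lower of those tested at the right. Acetylcholine receptor and denervation genes lie far to the right in the tibialis anterior, at medians of 4.83 and 3.76, and glycolysis and fast fibre genes to the left of 0, at -0.83 and -0.70.

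Among the largest single differences were genes of no list. Emb, the adhesion molecule embigin, ran from 0.480 to 1.16 CPM (median 0.657) at 6 months and from 9.43 to 62.2 CPM (median 44.4) at 27 months in the tibialis anterior and from 0.472 to 1.82 CPM (median 0.853) at 6 months and from 0.482 to 1.68 CPM (median 0.774) at 27 months in the diaphragm. The old tibialis anterior stood above all other libraries, and the difference was 5.85 ± 1.06 (SE, adjusted p = 5.6e-07). Dclk1, a kinase bound to microtubules, stood at 9.39 to 17.9 CPM (median 13.8) at 6 months and 139.9 to 954 CPM (median 534) at 27 months in the tibialis anterior and at 11.9 to 18.2 CPM (median 15.6) at 6 months and 12.8 to 73.1 CPM (median 20.4) at 27 months in the diaphragm, with a difference of 4.75 ± 0.36 (SE, adjusted p = 1.2e-28). On the other side were Ubxn10 (-3.83 ± 0.64), the netrin receptor Unc5a (-3.04 ± 0.54), the adenylyl cyclase Adcy1 (-2.83 ± 0.33) and Espl1 (-2.73 ± 0.30), the protease that parts chromatids. Unc5a and Espl1 had old tibialis anterior libraries below all young ones. Adcy1 and Ubxn10 overlapped.

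Opposite directions were found for 18 genes that rose in the tibialis anterior and fell in the diaphragm, and for 10 with the reverse. Calml3, a relative of calmodulin, was 0.357 to 1.07 CPM (median 0.544) at 6 months and 2.08 to 20.5 CPM (median 8.33) at 27 months in the tibialis anterior and 0.621 to 6.11 CPM (median 2.93) at 6 months and 0.219 to 4.78 CPM (median 0.742) at 27 months in the diaphragm, a difference of 4.94 ± 0.67 (SE, adjusted p = 3.8e-11). Igsf10 and Tyro3, a receptor kinase that binds dying cells, differed by 1.80 ± 0.31 and 1.5 ± 0.25. In the reverse group with Myh4, Prima1, which anchors the cholinesterases in the membrane, ran from 29.6 to 47.5 CPM (median 36.2) at 6 months and from 8.13 to 32.2 CPM (median 13.9) at 27 months in the tibialis anterior and from 11 to 21.1 CPM (median 15.9) at 6 months and from 20.1 to 73.1 CPM (median 30.2) at 27 months in the diaphragm. Both pairs of groups overlapped, and the difference was -2.25 ± 0.22 (SE, adjusted p = 4.4e-19). Lgi1, a secreted protein of the nervous system, differed by -2.25 ± 0.47. Hoxc10 fell in the tibialis anterior (-0.66), from a median of 73.8 to 47.2 CPM, and its rise in the diaphragm is between levels of 0 to 0.377 CPM, so the difference of -2.56 ± 0.53 depends on a few counts.

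A change called in the diaphragm and not in the tibialis anterior was the form of 38 rises and 81 falls. Shifts of the tibialis anterior below the thresholds can add to these differences. Ric3, a chaperone of acetylcholine receptors, rose in the diaphragm, from 0.942 to 2.36 CPM (median 1.83) at 6 months and from 2.11 to 4.43 CPM (median 3.41) at 27 months, and stood at 6.00 to 9.97 CPM (median 7.95) at 6 months and 4.24 to 8.35 CPM (median 5.87) at 27 months in the tibialis anterior, a difference of -1.53 ± 0.23 (SE, adjusted p = 9.9e-10). Kcnh1, a potassium channel, Ogdhl, an enzyme like oxoglutarate dehydrogenase, and Tox2 rose there by 1.18, 1.17 and 0.88. Atp1b4, which is related to subunits of the sodium pump but found in the nuclear envelope of muscle, fell from a median of 52.9 to 29.5 CPM in the diaphragm and differed by 1.31 ± 0.23 (SE, adjusted p = 3.8e-07). Sgol2, a guardian of chromosome cohesion, fell from 12.6 to 6.13 CPM, with a difference of 1.69 ± 0.44. Hbegf, a growth factor of the epidermal family, differed by 1.48 ± 0.36, or by 1.07 without the diaphragm library of replicate 0 at 6 months. Oas1k (-0.92) and Gucy2g (-0.82) were the genes that rose in both muscles and more in the diaphragm, and they were chosen after their values were seen, as the whole of their class.

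The number of genes whose change differed between the muscles grew late. Against 6 months, no gene was called at 9 or at 12 months in limma, with 235 and 451 genes at an unadjusted p under 0.05. At 18 months 15 genes were called, at 21 months 206 (1.61%), at 24 months 1004 (7.85%) and at 27 months 2590. All these comparisons share the 6-month libraries. Genes higher at 27 months had median differences of 0.08, 0.07, 0.24, 0.40, 0.64 and 1.07 from 9 to 27 months, and genes lower had -0.03, -0.05, -0.11, -0.23, -0.46 and -0.81, which describes genes picked at the last of these ages.

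Within this course the lists had different paces. Chrna1 differed by 1.26 at 18 months, 2.47 at 21, 4.16 at 24 and 4.02 at 27 months, so that its largest value stood at 24 months. Pfkm by contrast went -0.11, -0.38, -0.66 and -1.39 over these ages, a shift split about evenly before and after 24 months. Ndufs3 went -0.02, -0.11, -0.26 and -0.72, with the larger part of its shift after 24 months. For complex I the list median was -0.03 at 21, -0.13 at 24 and -0.51 at 27 months, and for glycolysis -0.20, -0.35 and -0.85, while the receptor list stood at 1.63, 3.01 and 2.96. The adipocyte list did not grow steadily, with medians of 1.27 at 18, 0.72 at 21, 0.40 at 24 and 1.60 at 27 months. B2m stood at 0.51, 0.95, 1.58 and 2.05 from 18 to 27 months. Myh4 stood at -0.86 at 9 and -1.24 at 12 months, though neither was called. The differences between successive ages were not tested.

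**Figure D5:**
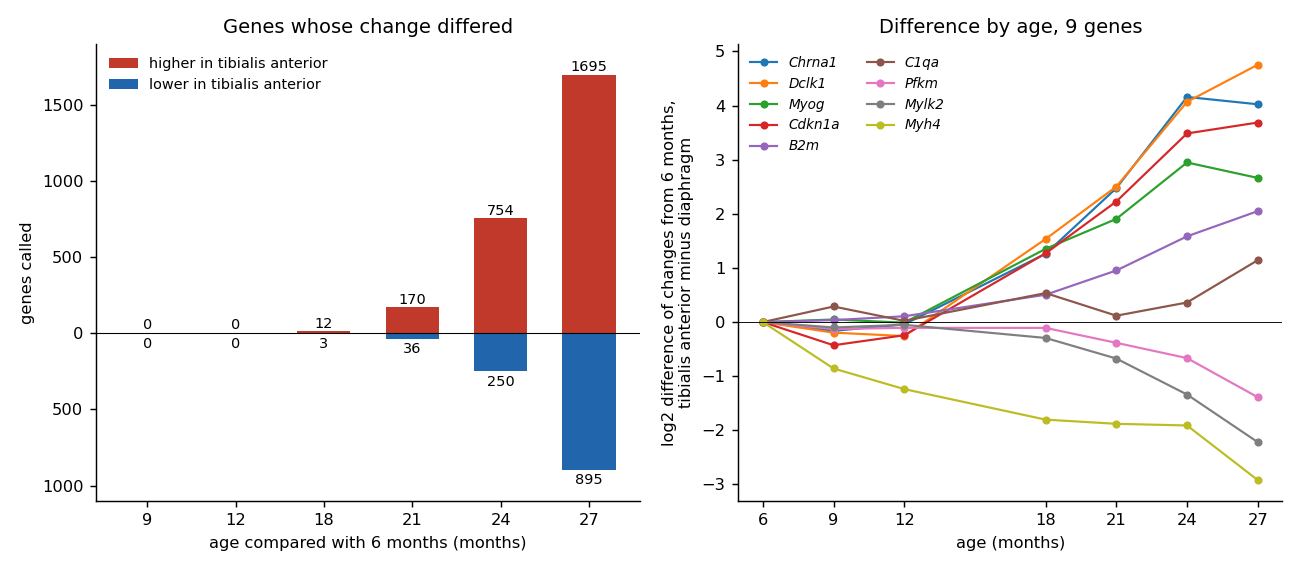
Left, the number of genes called at each age against 6 months, with those higher in the tibialis anterior upwards and those lower downwards, grows from 0 at 9 and 12 months to 1695 and 895 at 27 months. Right, the log2 difference of changes from 6 months, tibialis anterior minus diaphragm, is drawn by age for 9 genes, of which Chrna1 is no larger at 27 than at 24 months whereas Pfkm, Mylk2 and Myh4 drop further.

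The muscles also differed in level at an age when no gene was called against 6 months. At 9 months, whose libraries enter neither end of the difference, 12.7% of all genes were higher in the tibialis anterior and 22.2% lower, by the same thresholds. Among the 1695 genes with the higher change, 58.4% were lower in the tibialis anterior at 9 months and 4.0% higher. Among the 895 with the lower change, 49.4% were higher at 9 months and 8.4% lower. Of the genes whose difference in change was not called, 17.5% were lower and 10.9% higher. Pygm and Mylk2 are examples of genes that started higher in the tibialis anterior, with medians of 18864 to 7769.6 CPM (Pygm) and 1381 to 315 CPM (Mylk2) from 6 to 27 months in the tibialis anterior against 7694 to 8614 CPM and 361 to 365 CPM in the diaphragm, and Cidea of one that started lower, at 0.317 to 4.00 CPM against 4.01 to 3.82 CPM.

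Between old rats the tibialis anterior varied widely, and the same libraries often stood at the ends. The library of replicate 5 had the highest Chrna1 (1018 CPM), Myog (206 CPM), Cdkn1a (1199 CPM), B2m (1752 CPM) and Dclk1 (954 CPM) of the 12, and the lowest Myh4 (11953 CPM), Pfkm (616 CPM), Pygm (3186 CPM) and Ndufs3 (62.6 CPM). Replicate 9 was at the other end, with the lowest Chrna1 (135 CPM), Cdkn1a (235 CPM), B2m (573 CPM) and Dclk1 (140 CPM), and the highest Myh4 (69509 CPM), Pfkm (2568 CPM) and Pygm (16487 CPM). In the old diaphragm the library numbered 5 had the highest Chrna1 (189 CPM), Myog (65.2 CPM), Cdkn1a (307 CPM), B2m (839 CPM) and Dclk1 (73.1 CPM) as well. The labels do not say that equal numbers mark 1 animal. Replicate 9 of the old tibialis anterior also had the lowest correlation with its group, a median Spearman rho of 0.967, and leaving it out together with the lowest libraries of the young and the old diaphragm gave 2762 called genes.

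In the other limb muscles the same genes can be read side by side with the diaphragm. For Chrna1 the change was 5.35 in the tibialis anterior and 4.80 in gastrocnemius, while soleus had 2.53 and the diaphragm 1.33. Emb changed by 5.69, 5.16, 3.65 and -0.15 in the same order, and B2m by 2.38, 2.20, 0.68 and 0.34. Pfkm changed by -1.27, -1.4, -0.11 and 0.12, and Ndufs3 by -0.65, -0.79, -0.63 and 0.07. For Pfkm the soleus, a slow muscle, was thus nearer to the diaphragm, and for Ndufs3 nearer to the fast limb muscles. Myh4 changed by -1.51, -1.28, 3.06 and 1.4, and Col1a1 by -0.55, -1.90, -1.19 and -1.46. These are each muscle's own changes, and no difference between the limb muscles was tested here.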

How the data were processed

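The authors sequenced strand-specific, ribosome-depleted total RNA in paired reads of 76 bases, aligned it to the rat B6.0 reference with the ArrayStudio pipeline and deposited raw read counts per gene of an in-house RefSeq model, whose aligner settings are not given in the sources used here. The study's methods also used limma. For each library of the series, 17870 gene lines were summed to 17315 symbols. Genes were kept with edgeR's filterByExpr (minimum count 10, minimum total 15), scaled by TMM and fitted with limma-voom (limma 3.58.1, edgeR 4.0.16, R 4.3.3) over 28 groups of muscle and age, with no covariate. The contrast was the tibialis anterior at 27 minus 6 months, less that of the diaphragm, and calls needed an adjusted p (Benjamini-Hochberg) under 0.05 and over 1.5-fold, with p-values adjusted over all genes tested. Levels are CPM with effective library sizes, and log2 CPM used a prior count of 0.5. Totals of 19.4 to 66.1 M counts limit values under 1 CPM. The text names the 6 largest differences in each direction over a mean log2 CPM of 0, the 4 largest in each class of opposite or diaphragm-led change with that floor, the 4 largest called members of each list and a set of muscle genes whatever their values. A few further members are named to complete a count, and some genes that meet the rule are not reported here. The members and lists were chosen with earlier results of these data known. By the study's account the number of samples is the number of animals, so the libraries of a group come from separate rats. Within each group no pair of libraries agreed within sampling noise. Alternatives were other scalings, filters, thresholds and subsets, DESeq2 1.42.0 and edgeR's quasi-likelihood test. Promoter windows were read from RefSeq on GRCr8 and no coordinates were moved between builds.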

Additional observations from a re-analysis of the deposited data

Results flagged for a closer look

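The response to age differed between the tibialis anterior and the diaphragm, tested as the interaction of muscle and age in limma, for 2590 genes. The muscles moved in opposite directions, each past the thresholds in its own muscle, for 18 genes that rose in the tibialis anterior and fell in the diaphragm and for 10 genes with the reverse. Of those named, the log2 difference was 4.94 for Calml3, 2.02 for Lox, 1.80 for Igsf10 and 1.5 for Tyro3, which rose in the tibialis anterior. It was -2.92 for Myh4, -2.56 for Hoxc10, -2.25 for Prima1 and -2.25 for Lgi1, which fell there. Hoxc10 was at 0 to 0.377 CPM in the diaphragm, so its rise in that muscle rests on few counts. Groups of 12 libraries were too large for the rule used to single out outlying samples.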

How the results depend on the processing

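Scaling to total counts gave 3387 higher and 299 lower genes, and 1994 of the 2590 genes were shared with it. A Bonferroni adjustment left 1417 genes, 767 of them higher. A 2-fold threshold left 1203 genes (944 higher, 259 lower), and with no fold threshold there were 6160 (2988 higher, 3172 lower). The other settings gave 2514 to 2762 genes. No shared gene had the opposite sign in any of these but the fit with lines of a symbol kept separate, where this was not compared. Leaving out 1 library of the 48 gave 2394 to 2798. DESeq2 called 2702 genes and edgeR's quasi-likelihood test 2576. Fbxo32 turned to 0.17 with total counts. Myh2 turned to 0.013 with RLE size factors, 0.31 with total counts, 0.066 in DESeq2, 0.044 in edgeR and 0.065 without the 3 libraries farthest from their groups, never past the threshold. Of 174 named genes, 24 lost their call with total counts, 49 under Bonferroni and 47 at 2-fold. The cause was not tested. The replicate numbers are shared by the groups, and the fit of 48 libraries with the replicate number as a block called 2644 genes against 2531 without it. Deviations of equal numbers correlated at 0.01 to 0.38 (median 0.28) at 6 months and 0.03 to 0.57 (median 0.37) at 27 months, against medians of -0.045 and -0.053 for unequal numbers. Of the 12 pairs, 10 and 11 were over 0.1, and 9 and 9 (6 months) and 5 and 6 (27 months) of the 12 libraries of the tibialis anterior and the diaphragm correlated best with their own number. This is a hint, from the data and not from the design, that a number may mark an animal. The block was left out of the main fit because the labels do not tie numbers to animals and not every pair was over 0.1.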
